A study of Mus musculus with 36 samples.

Results

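The subject is a group of 25 microarray probes, of 25030 in the authors' deposited series matrix (0.0999%), chosen as those that were higher with tamoxifen on the first day of doxycycline treatment and less so later. The cells were secondary mouse embryonic fibroblasts (2ndMEF-KOS-ZERT2), in which tamoxifen acts on a Zscan4-ERT2 fusion and doxycycline is the inducer of the KOS transgenes. A probe was a member when both Dox+Tmx+ arrays of day 1 exceeded both Dox+Tmx- arrays, the difference of the means was at least 0.12 on the log10 scale, the Dox+Tmx+ mean was at least 2.3, and the mean difference over days 3 and 6 was under a 0.5 share of the day 1 difference. The Dox+ arrays of days 1, 3 and 6 therefore chose the members, and all their values are given as a description, with no test. Of the 72 probes that passed the day 1 conditions, 47 had a later difference too large to be members.

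Zscan4 is a zinc-finger and SCAN-domain protein family of early embryos, which embryonic stem (ES) cells express in brief bursts. Fusion to ERT2, a mutated ligand-binding domain of the oestrogen receptor, holds a protein inactive until tamoxifen (Tmx) binds. Doxycycline (Dox) switches on transgenes under a tetracycline-responsive promoter, and KOS is the usual short name for Klf4, Oct4 and Sox2, the factors that reprogram fibroblasts to induced pluripotent stem (iPS) cells.

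The series held 36 Agilent 2-colour arrays in 18 groups of 2. The secondary MEFs, all of clone #1 on a C57Bl/6 x 129 hybrid background and all carrying KOS and Zscan4ERT2, were grown in ES medium with LIF as Dox-Tmx-, Dox-Tmx+, Dox+Tmx- and Dox+Tmx+ cultures for 1, 3 or 6 days, with 200 nM tamoxifen and 1.5 µg/ml doxycycline per the labels' protocols. Primary MEFs were F1 hybrids from V6.5 in MEF medium, either transgenic (MEF2 ZERT2) or wild (MEF3), each Tmx- and Tmx+ for a time the labels do not give. The remaining groups were an iPS line with the same transgenes (clone #2) and v6.5 ES cells. The protocols of the MEF3 Tmx+ arrays and of replicate 2 of the day 1 Dox-Tmx+ culture mention no tamoxifen. The labels do not state the promoters of the transgenes, and nothing says that the 2 replicates of a group were grown separately, so the p-values below reflect the spread between these samples alone, which may be technical. In every array the sample carried Cy3 and a common reference carried Cy5, that reference being a pool of 11 cell lines' RNA mixed with ES cell RNA.

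The tables used here pair no member with a gene: none of the 25 sequences matched any of 32851 promoter windows or 1005 miRNA hairpins of RefSeq. Members are therefore named by probe, and neither the transgenes nor fibroblast or ES cell markers could be checked. Each probe is 60 bases long. The probes that lead the group in the series matrix are shown first, as the scanner files give them, in lower case because no part of them is set against another probe. The first 5 were selected by their day 1 difference, and Z00049267-1 is added for its rise with doxycycline.
Z00073957-1: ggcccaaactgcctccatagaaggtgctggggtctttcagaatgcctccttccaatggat
Z00023304-1: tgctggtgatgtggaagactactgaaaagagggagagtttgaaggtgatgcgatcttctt
Z00004876-1: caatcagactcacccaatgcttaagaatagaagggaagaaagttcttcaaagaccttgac
Z00078206-1: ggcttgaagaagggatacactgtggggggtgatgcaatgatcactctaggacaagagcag
Z00047204-1: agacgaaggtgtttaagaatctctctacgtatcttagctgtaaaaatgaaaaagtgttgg
Z00049267-1: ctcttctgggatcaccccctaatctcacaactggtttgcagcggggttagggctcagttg

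No pair of members shared a stretch of 20 or more bases, and the median GC content of the members was 43.33%, the same as over the whole array. For 3 members the array carries an overlapping probe outside the group, which shows what a shifted probe that shares 39 to 52 of the bases reads. Capitals mark the bases that a member, named first in each pair, shares with its neighbour.
Z00060082-1: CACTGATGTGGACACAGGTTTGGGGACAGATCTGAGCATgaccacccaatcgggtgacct
Z00026775-1: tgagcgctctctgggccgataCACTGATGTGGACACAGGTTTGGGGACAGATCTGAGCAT
Z00031190-1: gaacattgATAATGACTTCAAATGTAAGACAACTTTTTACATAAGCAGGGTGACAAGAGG
Z00060711-1: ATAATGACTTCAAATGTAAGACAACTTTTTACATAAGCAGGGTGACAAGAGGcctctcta
Z00055812-1: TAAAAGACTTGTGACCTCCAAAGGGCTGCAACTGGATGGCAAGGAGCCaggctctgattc
Z00077575-1: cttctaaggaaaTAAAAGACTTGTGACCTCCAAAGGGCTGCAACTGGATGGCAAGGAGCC

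The share of probes well above background ranged over the arrays from 54.9% to 77.1%, and the number of arrays, 2 per group, limits the precision. All 25 members passed the filter on dim probes, a filter that the Dox+ groups alone could satisfy. Levels below are log2 ratios of sample over reference from the scanner files, unless the series matrix is named. The day 1 Dox+Tmx+ and Dox+Tmx- arrays shared a slide, whereas Dox- and Dox+ cultures of a day lay on different slides. Doxycycline and slide therefore cannot be told apart. On every secondary MEF slide the Tmx- arrays took positions 1 and 2 and the Tmx+ arrays positions 3 and 4. Tamoxifen and position thus cannot be told apart either, nor can iPS against ES cells and position. The day 1 secondary MEF arrays were on other slides and scanned on another day than those of days 3 and 6. Changes from day 1 to later days therefore cannot be told apart from slide and scan day.

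The series matrix and the scanner ratios did not give the same picture of day 1. In the matrix the members' day 1 differences, turned to log2, ran from 0.41 to 2.03 with a median of 0.52. In the scanner ratios they ran from -0.03 to 1.31 with a median of 0.38. Z00050446-1 was the only member whose ratio difference exceeded its matrix difference (0.55 against 0.52). The members were chosen by their matrix differences on day 1 and later, so a weaker pattern on another measure can follow from the choice alone. The ratios also carry an added offset, described with the processing, which shrinks log ratios of dim spots. The part of either was not tested, so the gap does not show how far the sources disagree. The Dox+Tmx+ arrays lay above the Dox+Tmx- arrays in the ratios for 19 members. In the ratios 12 members reached 0.40, the log2 form of the matrix threshold, which was not adjusted for the offset. The label of a fading response also held less well there: 10 of the 25 members kept at least a 0.5 share of their day 1 ratio difference over days 3 and 6. One of the 10, Z00058766-1, differed by only 0.03 on day 1. Among the rest, Z00030017-1 (-0.02) and Z00025253-1 (-0.03) had no day 1 rise in the ratios. For such probes the share says little. The members were put into classes by these ratios after their values were seen. There were 14 apart on day 1 and raised with doxycycline, 5 apart and not raised, and 6 that overlapped on day 1. Apart means that both Dox+Tmx+ arrays exceeded both Dox+Tmx- arrays. Raised means that doxycycline alone exceeded Dox-Tmx- cultures by a mean of at least 1 over days 3 and 6. The word claims no cause, since doxycycline and slide cannot be told apart. The 10 that kept this share were 8 of the 14, 1 of the 5 and 1 of the 6.

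Z00073957-1 had the largest day 1 difference in the series matrix, 0.61 on the log10 scale or 4.09-fold, and this difference rested on 1 spot. Its scanner sample signal was 471 and 548 in the Dox+Tmx- arrays and 2012 and 429.4 in the Dox+Tmx+ arrays, and the log2 ratios were -0.45, -0.47, 1.52 and -0.54 in that order. Replicate 1 of Dox+Tmx+ was high and replicate 2 was the lowest of the 4, so the groups overlapped. The spot of replicate 1 was marked as non-uniform by the scanner software, and the matrix holds 3.69 for both Dox+Tmx+ replicates. Outside day 1 of Dox+Tmx+ the probe was lower in every doxycycline-treated group than in Dox- cultures of that day, for example -0.63 and -0.56 on day 3 of Dox+Tmx- against 1.64 and 1.68 in Dox-Tmx- cultures. It was lowest in iPS cells (-2.43 and -2.55) and ES cells (-2.52 and -2.55).

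Identical matrix values in both replicates of a group were not rare. They made up 12.7% of 450540 pairs over all probes, 34.3% of the 1186 pairs whose scanner values differed by over 0.3 on the log10 scale, and 40.0% of the 160 pairs with a non-uniform spot. Among the members 11 of 450 pairs were identical (2.44%). On the 2 day 1 groups that the rule compared there were 2 such pairs, that of Z00073957-1 and that of Z00058766-1, whose Dox+Tmx- value was 2.27 in both replicates.

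The other 5 members that overlapped on day 1 were Z00058766-1, Z00030017-1, Z00055812-1, Z00025253-1 and Z00052474-1. Their ratio differences on day 1 lay between -0.03 and 0.04, against 0.42 to 0.76 in the matrix. In Z00058766-1 the ratios were 1.58 and 1.39 in Dox+Tmx- and 1.58 and 1.45 in Dox+Tmx+. In Z00055812-1 they were 1.54 and 1.74 in Dox+Tmx- and 1.75 and 1.54 in Dox+Tmx+. Its neighbour Z00077575-1, which shares 48 of the 60 bases, read 1.44 and 1.58 against 1.34 and 1.32, and the pair had a Pearson correlation of 0.93 over the 36 arrays, which include shared libraries for both. In Z00030017-1 they were 1.68 and 1.86 against 1.84 and 1.66, in Z00025253-1 1.92 and 1.89 against 1.91 and 1.85, and in Z00052474-1 1.30 and 1.34 against 1.32 and 1.38. For these 5 probes, then, the sample-to-reference ratio showed no first-day rise with tamoxifen.

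The 14 members raised by doxycycline include the one with the largest day 1 tamoxifen difference in the ratios. Z00023304-1 read 0.06 and 0.07 in Dox-Tmx- cultures on day 1, 1.94 and 1.99 with doxycycline alone, and 3.32 and 3.23 with both drugs. The 3 groups did not overlap, and the Dox+Tmx+ mean lay 1.31 above that of doxycycline alone. With doxycycline alone the probe went on to 2.25 and 2.12 on day 3 and 2.54 and 2.37 on day 6. With both drugs it stood at 2.86 and 2.81, then at 2.82 and 2.70. The difference thus shrank to 0.65 and 0.30 as the Dox+Tmx+ level came down and the Dox+Tmx- level went up, and on both later days the Dox+Tmx+ arrays were still the higher ones.

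Z00004876-1 and Z00047204-1 behaved otherwise. Z00004876-1 was -1.96 and -1.94 with doxycycline alone on day 1 and -1.08 and -1.03 with both drugs, from -3.23 and -3.02 in Dox-Tmx- cultures. By day 3 the pairs were 1.52 and 1.42 against 2.18 and 2.15, and by day 6 they were 1.92 and 1.93 against 2.41 and 2.39. The tamoxifen difference was 0.90, 0.69 and 0.47 on days 1, 3 and 6. Most of the change in this probe was the rise between days 1 and 3 in both kinds of culture, across slides and scan days.

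Z00047204-1 was hardly above its Dox-Tmx- level (-1.01 and -1.15) with doxycycline alone on day 1 (mean -0.92), and read -0.23 and -0.14 with both drugs. By day 6 it had reached 4.30 and 4.27 with doxycycline and 4.90 and 4.75 with both drugs. Its tamoxifen difference was 0.73, 0.54 and 0.54 on the 3 days, so in the ratios it did not fall below a 0.5 share of the first-day value. The Dox+Tmx+ arrays were the higher ones on each day.

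Z00049267-1 had a smaller tamoxifen difference on both later days. It read 2.10 and 2.13 with doxycycline alone on day 1 and 2.90 and 2.85 with both drugs, a difference of 0.76. On day 3 the pairs were 5.59 and 5.62 against 5.67 and 5.74, a difference of 0.10 next to a rise of over 3 with doxycycline alone. On day 6 they were 5.53 and 5.55 against 5.81 and 5.81, a difference of 0.27, and the arrays did not overlap on either later day. In Dox- cultures it lay between -0.43 and -0.08 on all 3 days. Z00050446-1 (differences of 0.55, 0.03 and 0.29 on days 1, 3 and 6) and Z00025932-1 (0.47, 0.12 and 0.07) likewise had a smaller difference on day 3 than on day 1.

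Across the 14, doxycycline alone on day 1 stood above Dox-Tmx- cultures in all 14, by 0.16 to 4.10, and over days 3 and 6 by at least 1.48. In 11 of them doxycycline alone on days 3 and 6 lay above what Dox+Tmx+ cultures had on day 1. The first-day tamoxifen difference (0.11 to 1.31, median 0.36) was thus smaller than the later change with doxycycline alone in each of these 11. The mean tamoxifen differences over days 3 and 6 ran from 0.09 to 0.58, with a lower median of 0.19. In Z00030614-1 the later mean was the larger one (0.27 against 0.11 on day 1), from -0.04 on day 3 and 0.57 on day 6. The Dox+Tmx+ arrays lay above the Dox+Tmx- arrays in 12 of the 14 on day 3 and in 11 on day 6. These counts are description only: the rule used these arrays, and the share over all probes was not taken.

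The 14 split further by their level in ES cells. In 5 of them (Z00004876-1, Z00025932-1, Z00047204-1, Z00052463-1 and Z00007161-1) ES cells exceeded MEF3 Tmx- cells by 2 or more on the log2 scale. In 11 of the 14 the day 6 cultures with doxycycline alone lay above ES cells, and in the other 3 they lay below. Z00053752-1 gives the widest case, at 6.17 and 6.05 on day 6 of Dox+Tmx- against 0.14 and 0.19 in ES cells and -0.15 and -0.09 in Dox-Tmx- cultures of that day. Not all were dim in pluripotent cells: 11 of the 14 were well above background on both ES arrays and 10 on both iPS arrays.

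Taken group by group, the median level of the 14 was -0.30 in Dox-Tmx- and -0.26 in Dox-Tmx+ cultures on day 1, 1.41 with doxycycline alone and 1.61 with both drugs. It was 3.34 and 3.38 on day 3 and 2.84 and 3.09 on day 6, in the same order of doxycycline alone and both drugs. In the primary MEFs it lay between -0.41 and -0.33 over the 4 groups, in iPS cells at 0.22 and in ES cells at 0.34. All 14 were well above background on both arrays of every Dox+ group. In Dox-Tmx- cultures 6 of the 14 were so on each of the 3 days, in MEF2 ZERT2 cells 3 with or without tamoxifen, and in MEF3 cells 2 without and 5 with it.

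All 14 were apart on day 1 by the definition of their class, those with smaller differences included. Z00052463-1 read -1.98 and -2.04 with doxycycline alone and -1.59 and -1.66 with both drugs. Z00007161-1 read 0.46 and 0.53 against 0.87 and 0.78, and Z00053752-1 read 4.00 and 4.17 against 4.35 and 4.39. The gap between groups was thus of the order of the gap between replicates in Z00053752-1 and several times larger in Z00052463-1. Z00036412-1 read 1.49 and 1.58 against 1.93 and 1.72, and Z00054259-1 read 2.19 and 2.14 against 2.41 and 2.35. Z00025547-1 stood at 1.56 and 1.72 against 1.90 and 1.87. The smallest difference of the 14 was that of Z00030614-1 (0.11), at 1.26 and 1.31 against 1.38 and 1.41.

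The 5 members not raised by doxycycline were Z00078206-1, Z00060082-1, Z00028616-1, Z00054387-1 and Z00031190-1. On day 1 they stood at 1.92 to 2.10 in Dox-Tmx- cultures, at 1.16 to 1.60 with doxycycline alone and at 1.60 to 2.06 with both drugs. Doxycycline alone thus lay below Dox-Tmx- cultures in all 5, by -0.50 to -0.80, and Dox+Tmx+ cultures lay 0.44 to 0.52 above doxycycline alone. Over days 3 and 6 the tamoxifen difference of the 5 lay between -0.24 and 0.25, with a median of 0.13. In 4 of the 5 the Dox+Tmx+ arrays of day 1 overlapped the Dox-Tmx- arrays. The replicates of the Dox-Tmx- group differed from each other by 0.46 to 0.85 and those of Dox+Tmx- by 0.05 to 0.33, so the tamoxifen difference of these probes was no larger than the replicate spread seen in the Dox-Tmx- group.

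Z00078206-1 shows this spread. Its ratios on day 1 were 1.49 and 2.34 in Dox-Tmx-, 2.18 and 1.22 in Dox-Tmx+, 1.08 and 1.41 in Dox+Tmx- and 1.65 and 1.88 in Dox+Tmx+. The Dox+Tmx+ pair lay inside the range of the Dox-Tmx- pair. On days 3 and 6 the Dox+Tmx+ mean was the lower one, by -0.20 and -0.27.

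Other values of the 5 are given as description, since the class was drawn after its values were seen. In the 4 primary MEF groups their mean levels lay between -0.09 and 0.24, and in iPS and ES cells between 0.79 and 1.80. None was well above background on both arrays of any primary MEF group, and all 5 were so in every secondary MEF, iPS and ES group. Their pairwise Pearson correlations over those 28 arrays ran from 0.58 to 0.85 over 10 pairs, a description in which the points share libraries and slides. The 28 include the Dox+ arrays that chose the members and were used to draw the class. For the counts well above background the share over all probes was not taken. Their reference signals on the day 1 Dox+ arrays were 43.6 to 95.3 over local backgrounds of 37.0 to 46.0, so the denominator of these ratios was faint, and the reference channel itself was 0.01 to 0.24 higher on the Dox+Tmx+ arrays. The sample channel alone gave differences of 0.44 to 0.53. The part of reference brightness in these values was not tested.

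The overlapping probes did not follow 2 of these members. Z00026775-1 shares 39 bases with Z00060082-1 and read 0.10 and 0.19 in Dox+Tmx- and 0.18 and 0.16 in Dox+Tmx+ on day 1, where Z00060082-1 read 1.30 and 1.41 against 1.74 and 1.97. Z00060711-1 shares 52 bases with Z00031190-1 and was well above background on 0 of 36 arrays, while Z00031190-1 was so on 28. The Pearson correlations of these 2 pairs over the 36 arrays were 0.35 and 0.28. The pair of Z00055812-1 and Z00077575-1 above, by contrast, varied together over the arrays.

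Without doxycycline, tamoxifen can be tested on arrays that the rule did not use. In the secondary MEFs on day 1, limma with Benjamini-Hochberg adjustment called 0 of 25 members higher and 0 lower, with 0% and 0% of the 33099 probes tested called. At an unadjusted p under 0.05 there were 3 members and 2362 probes (7.14%). The members' median difference was 0.0038, against -0.0014 over all probes, with a range of -0.27 to 0.35. Averaged over the 3 days, 0 members were called in either direction, against 0% of all probes, with 0 members and 4234 probes (12.8%) at an unadjusted p under 0.05. For Z00023304-1 the day 1 difference without doxycycline was -0.05 (95% interval -0.21 to 0.12), for Z00004876-1 -0.11 (-0.34 to 0.11), and for Z00049267-1 0.14 (-0.01 to 0.30). The difference from the cultures with doxycycline has no test here, since those chose the members. Z00023304-1 was well above background on both Dox-Tmx- arrays and on neither Dox-Tmx+ array of day 1, and Z00049267-1 on 1 of these 4 arrays. For Z00073957-1 and Z00078206-1 the upper ends were 0.65 and 0.40, and over all 25 members they ended under 0.40 in 18. Of the 25, 20 were measured, and the other 5 were not well above background on any of these arrays.

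Read by the same rule in the matrix, tamoxifen without doxycycline gave 48 probes upwards (0.192%) and 16 downwards (0.0639%), and doxycycline-treated cultures gave 12 downwards (0.0479%). A rule of this kind was thus met by more probes where no doxycycline was given. Of the 25 members, 1 was also in the list of 48 and 1 in the list of 16.

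In primary MEF2 ZERT2 cells tamoxifen cannot be told apart from slide and scan day, since Tmx- and Tmx+ differed in both. There limma called 1 member higher and 0 lower, against 1.62% and 1.42% of all probes, and 9 of the 25 were measured. The median difference was 0.013 over the members and -0.0002 over all probes. The member was Z00047204-1, at -1.15 and -0.90 in Tmx- and -0.67 and -0.61 in Tmx+. It rose by 0.38 (SE 0.0968, limma adjusted p = 0.0296). This call was lost with the local backgrounds as deposited (adjusted p = 0.445), with only the compared arrays in the fit (0.229), without replicate 1 of MEF2 ZERT2 Tmx- (0.350) and without replicate 2 of MEF2 ZERT2 Tmx+ (0.230). In MEF3 cells Z00047204-1 differed by 0.27 (limma adjusted p = 0.271). These cells lack the transgene, had their groups on separate slides, and their Tmx+ protocols mention no tamoxifen. The difference between the 2 genotypes was 0.11 (95% interval -0.18 to 0.39, limma adjusted p = 0.866).

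The rest of the group showed no call in these cells. In MEF3 cells 0 of 25 members were called higher and 0 lower, against 0.0453% and 0.254% of probes. At an unadjusted p under 0.05 there were 5 members and 4141 probes (12.5%), and 16 members were measured. The test of the Tmx+ against Tmx- difference between MEF2 ZERT2 and MEF3 called 0 higher and 0 lower, against 0.378% and 0.378%. At an unadjusted p under 0.05 it gave 1 member and 3517 probes (10.6%). The protocols of the MEF3 Tmx+ arrays mention no tamoxifen, so whether either test involves tamoxifen in MEF3 cells is not known. Over the members not called, the 95% intervals of the MEF2 ZERT2 difference ran from -0.91 to 0.57. Z00023304-1 was not well above background on any primary MEF array, with a difference of 0.04 (95% interval -0.12 to 0.21).

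ES cells against MEF3 Tmx- cells gave 13 members higher and 6 lower, against 33.4% and 40.0% of all probes. The groups differed in slide and scan day, so cell type cannot be told apart from these. The median difference was 0.49 over the members and -0.043 over all probes. Z00004876-1 was at 1.76 and 1.74 in ES cells and -2.19 and -2.63 in MEF3 cells, a difference of 4.16 (SE 0.110, limma adjusted p = 6.06e-21). Z00025932-1 differed by 4.11 (SE 0.113, limma adjusted p = 1.51e-20) and Z00047204-1 by 3.18 (SE 0.0968, limma adjusted p = 1.14e-19). Z00004876-1 and Z00025932-1 were not well above background in MEF3 cells, so these differences were not measured on both sides. On the scale of the sample channel alone, which is not that of the ratios, they were at least 29.7-fold and at least 23.0-fold higher in ES cells. The lower members were led by Z00073957-1, by -3.34 (SE 0.310, limma adjusted p = 5.47e-10), Z00025253-1, by -1.35, and Z00055812-1, by -0.77.

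By class, drawn after the values were seen, all 5 members not raised by doxycycline were called higher in ES cells, against 33.4% of all probes. None was well above background on a MEF3 Tmx- array, and the bounds on the sample channel ran from at least 1.42-fold for Z00078206-1 to at least 3.98-fold for Z00054387-1. Of the 14 raised, 8 were higher and 1 lower. Of the 6 that overlapped on day 1, 5 were lower, against 40.0% of all probes. In iPS against ES cells, which shared a slide, 0 members were called higher and 1 lower, against 2.92% and 5.15% of probes, with 6 members and 6390 probes (19.3%) at an unadjusted p under 0.05. That member, Z00052463-1, was at 0.41 and 0.39 in iPS and 0.66 and 0.75 in ES cells and was lower by -0.30 (SE 0.0578, limma adjusted p = 0.000993), a call lost with local backgrounds as deposited (adjusted p = 0.716) and with the scanner software's own log ratio (0.0807).

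In untreated secondary MEFs 15 of the 25 members were not called with time in culture. On day 6 against day 1 of Dox-Tmx- cultures, 2 were called higher and 8 lower, against 27.6% and 27.5% of probes. The 2 days differed in slide and scan day, so culture time cannot be told apart from these. The median difference was -0.14 over the members and -0.016 over all probes. Z00025253-1 went from 1.90 and 1.70 on day 1 to 3.45 and 3.43 on day 6, higher by 1.64 (SE 0.111, limma adjusted p = 5.14e-12). Z00055812-1 was higher by 0.83. Z00031190-1 went from 1.68 and 2.24 to 1.08 and 0.94, lower by -0.95 (SE 0.122, limma adjusted p = 3.74e-07), Z00025547-1 was lower by -0.83 and Z00028616-1 by -0.80. Of the 5 members not raised by doxycycline 3 were called lower and 0 higher. With slide as a random block the calls of Z00055812-1 (0.06, limma adjusted p = 0.932), Z00025547-1 (-0.06, 0.872) and Z00028616-1 (-0.57, 0.154) were lost. With local backgrounds as deposited those of Z00025253-1 (0.88, limma adjusted p = 0.0919) and Z00055812-1 (0.30, 0.361) were lost.

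Between untreated MEF2 ZERT2 and MEF3 cells, 2 members were called higher and 2 lower, against 4.93% and 5.12% of probes. The genotypes differed in slide and scan day, and 11 of the 25 were measured. Z00025253-1 was at 3.15 and 2.84 in MEF2 ZERT2 and 1.96 and 2.12 in MEF3 cells, higher by 0.96 (SE 0.111, limma adjusted p = 1.37e-06). Z00055812-1 was higher by 0.55 (limma adjusted p = 0.0476), and Z00036412-1 and Z00054259-1 were lower by -0.30 (limma adjusted p = 0.0161) and -0.29 (0.00908). With local backgrounds as deposited all 4 calls were lost, at limma adjusted p = 0.257, 0.286, 0.0534 and 0.0968 in that order. Leaving out 1 array in turn, each of the 4 arrays, ended the call of Z00055812-1 and of Z00036412-1 in 4 of 4 fits and that of Z00054259-1 in 3 of 4, and that of Z00025253-1 in 0. Without background subtraction Z00054259-1 differed by -0.10 (limma adjusted p = 0.420). Both probes that were higher here were also the ones that were higher on day 6 of untreated culture, and neither was apart on day 1 in the ratios of the treated cultures.

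The members closest to the matrix threshold were Z00030614-1 at 0.1224, Z00025547-1 at 0.1239 and Z00052474-1 at 0.1253 on the log10 scale, with Z00050480-1 at 0.1191, Z00020619-1 at 0.1180 and Z00037180-1 at 0.1160 just outside. The highest later shares inside the rule were 0.461, 0.492 and 0.493, and the lowest outside were 0.508, 0.537 and 0.564. A like rule was applied to the scanner ratios of the 33099 probes tested. In place of the brightness minimum it asked that both day 1 Dox+Tmx+ arrays be well above background. It gave 65 probes past the day 1 threshold and 27 that faded. Only 16 of the 27 were in the series matrix and so could have been members. Of the 27, 8 were members, which is 32.0% of the members and 29.6% of the whole scanner list.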

How the data were processed

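The authors' deposited scanner files give, for each spot, the mean intensity and the median local background intensity of both channels, which per the file headers come from Feature Extraction, version 9.5.1.1. In the series matrix the deposited values are log10 brightness of the sample channel. Their adjustment and centring are not stated, column medians were 2.37 to 2.46, and Spearman correlations with the sample channel were 0.972 to 0.991. The deposited log10 ratio of Feature Extraction served as an alternative.

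Backgrounds marked as outliers were replaced by the array median. normexp (offset 50), loess within arrays and averaging of repeated spots followed (R 4.3.3, limma 3.58.1), giving log2 sample over reference with no dye swap. Of 42006 probes, 33099 were well above background on both arrays of at least 1 group and were tested. lmFit and eBayes were run on 36 arrays with 1 mean per group, two-sided, and called at a Benjamini-Hochberg adjusted p under 0.05. The fit was tested on simulated data.

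The arrays lay on 11 slides scanned on 5 days. Groups came from the labels. The members and lists were chosen with earlier results of these data known. Probes were named where they led the rule, were among the 3 largest calls of a contrast in each direction, or lay at the threshold; the remaining names were chosen after their values were seen. Gene lists and cell type markers were not used, since probes could not be paired with genes. Replicate numbers do not pair samples: correlations of deviations exceeded 0.1 in 34 of 153 pairs of groups. Alternatives covered background, normalization, filter, samples, slide, block, members and replicates left out.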

Additional observations from a re-analysis of the deposited data

How the results depend on the processing

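Of 209 values of named probes under other settings, 178 kept their side of the threshold, 31 lost their call and 0 changed sign. For the counts of members called, the number under a setting follows the words higher or lower. Under other fits the share of all probes called was not taken, so those counts cannot be set against a share. Tamoxifen without doxycycline on day 1: matrix values higher 1. MEF2 ZERT2: higher 0 with deposited backgrounds, 2 without background subtraction, 2 with the Feature Extraction ratio, 4 with matrix values and 0 with only the compared arrays; lower 1 without subtraction, 1 with the Feature Extraction ratio and 1 with matrix values. MEF3: lower 1 with the Feature Extraction ratio and 1 with matrix values. Genotype difference: higher 3 with the Feature Extraction ratio and 4 with matrix values, lower 1 without subtraction. ES: the 9 members of a 0.2 threshold gave 7 higher and 2 lower, the 12 that also reach the threshold in the scanner ratios gave 1 lower, and the 19 apart on day 1 gave 1 lower. iPS: higher 1 with matrix values and 1 with only the compared arrays; lower 0 with deposited backgrounds, 2 without subtraction, 4 with matrix values, 2 with only the compared arrays, and 0 for the 9 and 0 for the 12. Time: higher 0 with deposited backgrounds and 9 with slide as a random block, a fit that takes drug effects as common to all days, and 0 for the 9, the 12 and the 19; lower 3 with slide as a block, 5 for the 9 and 5 for the 12. Untreated MEF2 ZERT2 against MEF3: higher 0 with deposited backgrounds, 1 with the Feature Extraction ratio, 4 with matrix values, 1 with no filter, 1 without 2 arrays of wide background, and 0 for the 9, the 12 and the 19; lower 0 with deposited backgrounds, 1 without subtraction, 4 with matrix values, and 0 for the 9 and the 12. With fewer members the counts are lower by construction; otherwise the cause was not tested.

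With replicates left out in turn, calls ran from 0 to 1 higher for MEF2 ZERT2, 0 to 2 higher for tamoxifen without doxycycline over 3 days (2 without replicate 1 of day 6 Dox-Tmx+), 1 to 2 lower for iPS (2 without ES replicate 1), and 1 to 1 higher and 0 to 2 lower for untreated MEF2 ZERT2 against MEF3. With the replicate block, 1 member in place of 2 was higher between untreated MEF2 ZERT2 and MEF3, and no other count changed; the numbers do not pair these samples. The like rule on scanner ratios gave 27 probes, and the rule in the matrix without probes whose day 1 replicates repeat gave 23. Both were chosen after seeing the data, as was the restriction to the 19. Arrays of 2 per group, faint reference spots and the lack of gene names limit all of these values.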
